A study of Rattus norvegicus with 30 samples.

Results

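Nitric oxide and the natriuretic peptides share a second messenger, cGMP, which relaxes vessels and lets the kidney excrete salt. Nitric oxide synthases make the gas from arginine, and it binds soluble guanylate cyclase, a dimer of an alpha and a beta subunit that forms cGMP. Natriuretic peptides instead bind receptors on the cell surface that are guanylate cyclases themselves. cGMP-dependent protein kinases carry the signal onward, and phosphodiesterases end it.

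The genes described here are the synthases *Nos1* and *Nos3*, the cyclase subunits *Gucy1a1* and *Gucy1b1*, the peptide receptors *Npr1*, *Npr2* and *Npr3*, the kinase *Prkg2* and the phosphodiesterase *Pde5a*. They are 9 of 14217 genes that a probe set measured, chosen by name for their place in this pathway. The list of 10 names also held *Prkg1*, which no probe set matched by its symbol and which was not analysed here. A total of 11 probe sets matched the 9 genes. *Gucy1a1* and *Gucy1b1* had 2 probe sets each, of which the brighter one led and the other served as a check.

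The study measured kidney RNA of male pups of the stroke-prone spontaneously hypertensive rat (SHRSP), an inbred strain that develops severe hypertension. Dams received a diet with 20% casein (CN) or 9% casein (LP) in pregnancy and an ordinary diet after delivery, so the diets compared differed during fetal life. Kidneys were collected at postnatal day 5 (D5), 10 (D10) and 28 (D28), which gave 6 groups of 5 arrays each (D5-CN, D5-LP, D10-CN, D10-LP, D28-CN and D28-LP). The labels call the arrays biological replicates, whereas the study's methods describe pooled RNA from each group, and the litters were not given. The tests therefore rest on the spread between arrays, some of which may be technical, and pups of a group may share a dam.

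All values are log2 expression values as the authors deposited them, so a difference of 1 is a doubling. The kidney markers *Umod*, *Slc12a1*, *Slc34a1* and *Aqp2* lay above 99.2% of all probe sets in mean level, and the podocyte gene *Nphs1* above 82.1%. The correlation between 2 arrays of the same group was 0.983 to 0.998. Array means were 6.93 to 6.94 at D5 and 6.86 to 6.87 at D10 and D28. Whether the ages were normalized together is not known, and age cannot be told apart from any array batch that follows it. In whole kidney, fewer cells of a type and less RNA per cell cannot be told apart either.

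*Gucy1a1* and *Gucy1b1*, whose RNA fell together, lie next to each other on chromosome 2 with no protein-coding gene between them. *Nos3* had the largest increase with age among the 9 genes. The 250 bases before the annotated start of these 3 genes are shown to set the regions beside each other. They were taken from RefSeq (GRCr8, all on the minus strand) and are printed 5′ to 3′ at chr2:169779624-169779873, chr2:169696988-169697237 and chr4:11706582-11706831. Capitals mark the GC box GGGCGG and the CCAAT box CCAAT, each searched on both strands, so that ATTGG is a CCAAT box on the other strand.
Gucy1a1: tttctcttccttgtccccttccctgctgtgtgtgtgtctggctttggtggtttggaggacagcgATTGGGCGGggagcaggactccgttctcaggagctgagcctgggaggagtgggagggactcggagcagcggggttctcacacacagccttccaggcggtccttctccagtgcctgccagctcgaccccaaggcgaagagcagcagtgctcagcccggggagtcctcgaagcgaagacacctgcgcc
Gucy1b1: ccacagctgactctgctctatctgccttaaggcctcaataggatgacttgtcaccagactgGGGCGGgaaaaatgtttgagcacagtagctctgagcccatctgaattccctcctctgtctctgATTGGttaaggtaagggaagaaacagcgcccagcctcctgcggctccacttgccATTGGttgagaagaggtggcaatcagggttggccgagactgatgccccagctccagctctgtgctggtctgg
Nos3: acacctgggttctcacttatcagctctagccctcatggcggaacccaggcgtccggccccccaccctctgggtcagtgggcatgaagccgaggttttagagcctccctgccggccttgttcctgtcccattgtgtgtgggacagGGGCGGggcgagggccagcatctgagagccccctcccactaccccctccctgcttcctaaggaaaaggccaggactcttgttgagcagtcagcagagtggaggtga
All 3 windows held a GC box, as did 30.5% of 33469 rat promoters, and *Gucy1a1* and *Gucy1b1* also held the CCAAT box, which 34% of promoters held. In *Gucy1a1* both boxes shared 2 bases. None of the 3 windows held a TATA box (TATAAA), present in 12.9% of promoters. The windows contained 63.2%, 54.8% and 62.4% G and C in the order shown, against a mean of 52.2% over all promoters. A match is a description of the letters and not a measured binding site.

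The alpha and beta subunits of soluble guanylate cyclase, which together form the nitric oxide receptor, were lower at D28 than at the younger ages. *Gucy1a1* was measured at 10.43, 10.45, 10.60, 10.89 and 10.72 in the D5-CN arrays and at 10.59, 10.40, 10.36, 10.61 and 10.72 in the D5-LP arrays. At D10 it was 10.46, 11.17, 11.00, 10.64 and 10.26 in CN and 10.39, 10.51, 10.66, 10.57 and 10.62 in LP. At D28 it was 9.94, 9.78, 9.38, 9.67 and 9.28 in CN and 9.27, 9.38, 9.53, 9.12 and 9.98 in LP. Every D28 array was below every D5 and D10 array, whereas the 4 younger groups overlapped one another. A fall without overlap was common with age. It was seen from D5 to D28 in 29% of all probe sets in CN and 30.1% in LP, and from D10 to D28 in 19.5% and 21.1%.

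From D5 to D28, *Gucy1a1* fell by 1.01 ± 0.15 (SE) in CN, a 2.01-fold decrease, and by 1.08 ± 0.15 in LP (limma, adjusted p = 1.72e-06 and 5.96e-07). In the lead probe set the decrease took place after D10, with a fall of 1.10 in CN and 1.09 in LP between D10 and D28. Between D5 and D10 the difference was 0.09 in CN (95% interval −0.23 to 0.41) and 0.01 in LP (−0.30 to 0.33). The second *Gucy1a1* probe set fell by 0.58 in CN and 0.58 in LP from D5 to D28 and followed the lead over the 30 arrays (r = 0.942). From D10 to D28 it fell by 0.46 in CN and 0.48 in LP, and its D10-CN arrays overlapped both D28 groups. From D5 to D10 it differed by −0.12 in CN and −0.11 in LP (limma, adjusted p = 0.363 and 0.443).

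*Gucy1b1* was 8.56, 8.57, 8.81, 9.25 and 8.82 in D5-CN, 8.29, 9.00, 8.54, 8.57 and 8.31 in D10-CN and 8.18, 8.12, 8.02, 7.99 and 7.84 in D28-CN. All D28-CN arrays were below all D5-CN and D10-CN arrays. The D5-LP arrays gave 8.26, 8.34, 8.15, 8.55 and 8.47, the D10-LP arrays 8.31, 8.36, 8.14, 8.22 and 8.65, and the D28-LP arrays 7.63, 7.83, 7.88, 7.55 and 8.30. In LP the ages overlapped, through the single D28-LP array at 8.30. The gene fell by 0.77 ± 0.14 (SE) in CN and by 0.52 ± 0.14 in LP from D5 to D28, or 1.71-fold and 1.43-fold (limma, adjusted p = 2.13e-05 and 0.00199). The second *Gucy1b1* probe set fell by 1.04 and 0.94 (r = 0.870 with the lead over 30 arrays). Its LP ages did not overlap at D28, where the highest array was 7.36, against lowest arrays of 7.65 at D5 and 7.78 at D10. Such falls were seen in 30.1% of all probe sets from D5-LP and 21.1% from D10-LP. The direction of the difference between D5 and D10 differed between the 2 probe sets, being −0.26 for the lead and 0.06 for the other in CN. In LP it was −0.02 for the lead and 0.28 for the other (limma, adjusted p = 0.934 and 0.0916). The lead's fall in CN was called without D10-CN replicate 2 (−0.37, adjusted p = 0.0297).

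With the group means removed, *Gucy1a1* and *Gucy1b1* still varied together over the 30 arrays (r = 0.806), as a description of arrays that share each group's handling. Fibroblast markers of the kidney interstitium (*Pdgfra*, *Col1a1*, *Col3a1*, *Dcn*, *Lum* and *Tcf21*) also fell between D10-CN and D28-CN. All 6 passed the test (28.9% of all probe sets were called lower), with a median difference of −1.04, and their mean level per array ranged from 10.89 to 11.57 in D10-CN and from 9.91 to 10.78 in D28-CN. Unlike the cyclase subunits they had risen from D5 to D10 (5 of 6 passed, against 14.3% of all probe sets called higher, median difference 0.75). Of the 11 smooth muscle and pericyte markers, 6 fell and 1 rose from D10-CN to D28-CN (28.9% and 31.5% of all probe sets), and their mean level ranged from 7.59 to 8.13 and from 7.17 to 8.06. The part of these cells in the subunit result was not tested.

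**Figure D1:**
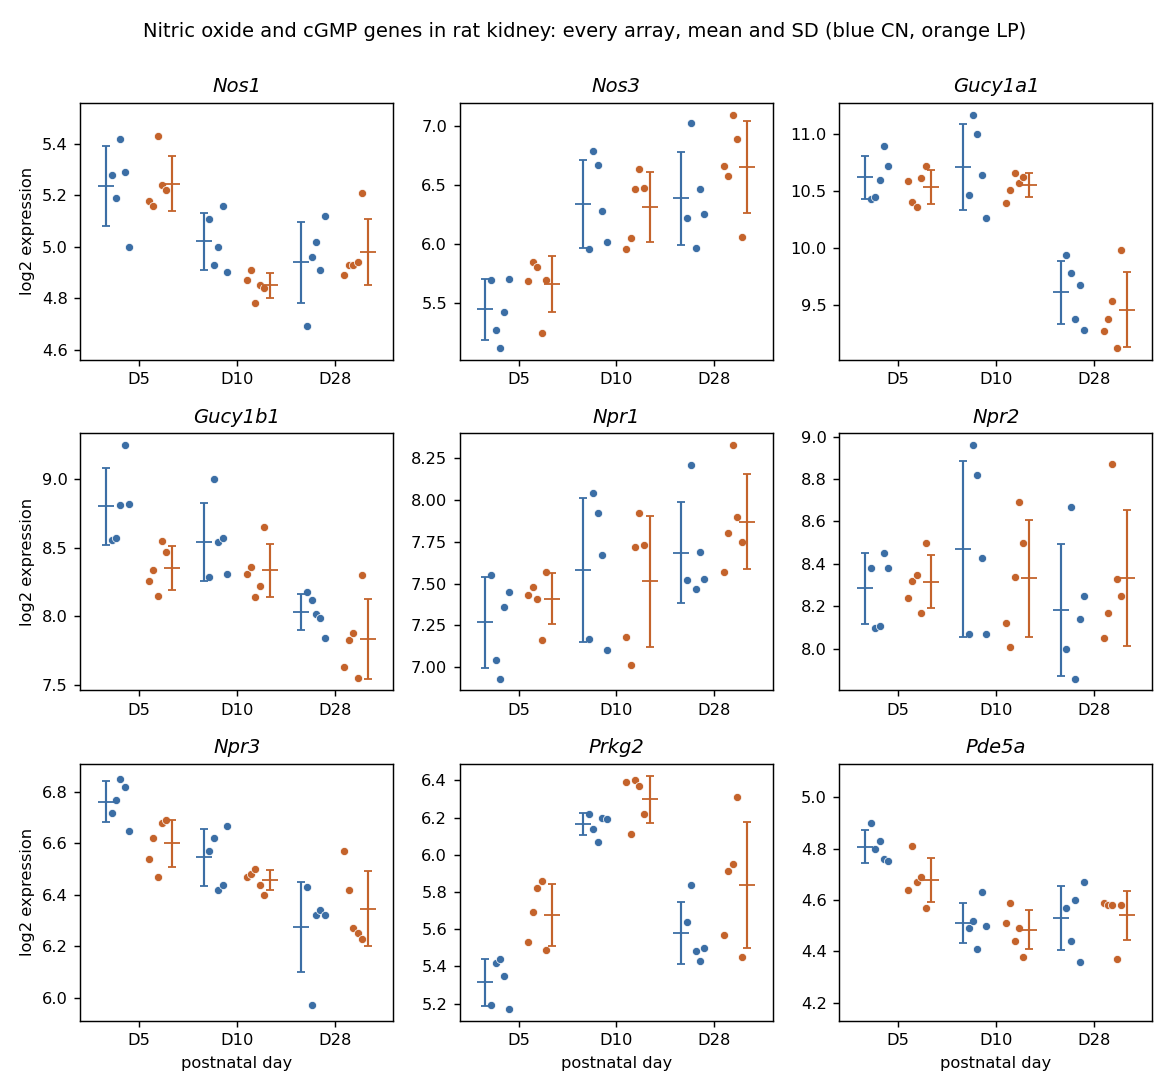
Log2 expression (vertical axes, a separate range for each gene) of the 9 genes in each array at D5, D10 and D28, with CN in blue and LP in orange; horizontal ticks and bars give the group mean and SD (n = 5 arrays). *Gucy1a1* lies between 9.12 and 9.98 at D28, below all younger arrays, while *Nos3* lies above all D5 arrays from D10 on.

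The endothelial synthase *Nos3*, which makes nitric oxide in the vessel wall, was higher from D10 on. It was 5.70, 5.27, 5.12, 5.43 and 5.71 in D5-CN and 5.69, 5.85, 5.81, 5.25 and 5.70 in D5-LP. At D10 it was 5.96, 6.79, 6.67, 6.28 and 6.02 in CN and 5.96, 6.05, 6.47, 6.64 and 6.48 in LP. At D28 it was 6.22, 7.03, 5.97, 6.47 and 6.26 in CN and 6.66, 6.58, 7.10, 6.89 and 6.06 in LP. No D10 or D28 array reached down to the D5 range, and the D10 and D28 ranges overlapped. In CN, 7.46% of all probe sets rose without overlap from D5 to D10 and 20.7% from D5 to D28, and in LP 7.8% and 21.3%.

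*Nos3* rose by 0.90 ± 0.20 (SE) in CN and 0.66 ± 0.20 in LP between D5 and D10 (limma, adjusted p = 0.000561 and 0.00908). From D5 to D28 it rose 1.92-fold in CN (log2 difference 0.94, adjusted p = 0.000142) and by 1.00 in LP (adjusted p = 6.83e-05). Between D10 and D28 the difference was 0.05 in CN (95% interval −0.36 to 0.45) and 0.34 in LP (−0.06 to 0.75, adjusted p = 0.137). The LP step passed the threshold without D28-LP replicate 5, the lowest array of that group (0.49, adjusted p = 0.0339).

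The neuronal synthase *Nos1*, known in the kidney from the macula densa, moved the other way and was dim, with a mean level above only 23.9% of probe sets. Its arrays ranged from 5.00 to 5.42 in D5-CN, 4.90 to 5.16 in D10-CN and 4.69 to 5.12 in D28-CN. In LP they ranged from 5.16 to 5.43, from 4.78 to 4.91 and from 4.89 to 5.21. The D10-LP arrays were all below the D5-LP arrays, as for 20.3% of all probe sets, while the CN ages overlapped. *Nos1* fell by 0.30 ± 0.08 (SE) in CN and 0.27 ± 0.08 in LP from D5 to D28 (limma, adjusted p = 0.00156 and 0.00395). Of the earlier step, from D5 to D10, the fall of 0.40 in LP had an adjusted p of 0.000197 and the fall of 0.22 in CN one of 0.0262. The CN call was lost without D5-CN replicate 1, 3 or 4 or D10-CN replicate 2 or 5 (adjusted p = 0.0524 to 0.0922), with quantile normalization (0.0513), with median centring (0.0747) and when the 10 arrays of the 2 groups alone were fitted (0.0623).

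The receptors for the natriuretic peptides differed in their course. *Npr1*, the receptor of the atrial and B-type peptides, ranged from 6.93 to 7.55 in D5-CN, 7.10 to 8.04 in D10-CN and 7.47 to 8.21 in D28-CN. In LP it ranged from 7.16 to 7.57, from 7.01 to 7.92 and from 7.57 to 8.33. The ages overlapped in CN, and in LP the lowest D28 array was level with the highest D5 array to 2 decimals. The difference between D28 and D5 was 0.46 ± 0.19 (SE) in LP and 0.42 ± 0.19 in CN (limma, adjusted p = 0.0352 and 0.0558), so that it passed in LP only, and the diet effects at both ages differed by 0.04 (95% interval −0.51 to 0.59). Neither side of the threshold was stable for *Npr1*. The LP call was lost without D5-LP replicate 1, 3 or 4 or D28-LP replicate 3 or 4 (adjusted p = 0.0506 to 0.123), and the CN difference was called without D5-CN replicate 1 or 5 or D28-CN replicate 3 (0.0363 to 0.0498), with quantile normalization (difference 0.52, 0.0136), with median centring (0.0183) and when the 10 arrays of the 2 groups alone were fitted (0.0339). Between D10 and D28 in LP, the difference of 0.36 (adjusted p = 0.106) was called without D10-LP replicate 4 (0.46, 0.0466).

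*Npr2*, the receptor of the C-type peptide, stayed within its array spread. Its group means were 8.28, 8.47 and 8.18 in CN and 8.32, 8.33 and 8.33 in LP at D5, D10 and D28. The difference between D28 and D5 was −0.10 in CN (95% interval −0.45 to 0.25) and 0.02 in LP (−0.33 to 0.37). The later step in CN, −0.29 (adjusted p = 0.15), was called only without D28-CN replicate 2 (−0.41, adjusted p = 0.0395).

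*Npr3*, the receptor without a cyclase that clears the peptides, fell with age. It ranged from 6.65 to 6.85 in D5-CN, 6.42 to 6.67 in D10-CN and 5.97 to 6.43 in D28-CN, and no D28-CN array overlapped D5-CN. Such a fall without overlap was seen in 29% of all probe sets. In LP it ranged from 6.47 to 6.69, from 6.40 to 6.50 and from 6.23 to 6.57, with overlap between all ages. The fall from D5 to D28 was 0.49 ± 0.07 (SE) in CN and 0.25 ± 0.07 in LP (limma, adjusted p = 1.53e-06 and 0.00378). In CN both steps passed, with falls of 0.22 and 0.27 (adjusted p = 0.0185 and 0.00247). The first of these calls was lost without D10-CN replicate 3 or 4 (adjusted p = 0.0598 and 0.0529), with quantile normalization (0.0599) and with median centring (0.0652), and the LP fall from D5 to D28 with median centring (0.0539).

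*Prkg2* encodes the membrane-bound cGMP kinase type II, which in mice restrains renin release. Its mean was highest at D10 in both diets. The lead *Gucy1a1* probe set was also highest at D10, though by only 0.09 in CN and 0.01 in LP over D5. The second *Gucy1a1* probe set was highest at D5 in both diets. *Prkg2* was the only one of the 9 genes with a called rise followed by a called fall. The D10 arrays held 6.22, 6.14, 6.07, 6.20 and 6.19 in CN and 6.39, 6.11, 6.40, 6.37 and 6.22 in LP. In D28-CN the arrays were at 5.64, 5.84, 5.48, 5.43 and 5.50, and in D28-LP at 5.57, 5.91, 5.95, 6.31 and 5.45. All D10-CN arrays were above both other CN ages (7.46% of all probe sets rose without overlap from D5-CN to D10-CN and 19.5% fell from D10-CN to D28-CN), whereas D28-LP, with its array at 6.31, overlapped D10-LP.

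*Prkg2* rose by 0.85 ± 0.11 (SE) in CN and 0.62 ± 0.11 in LP from D5 to D10, or 1.80-fold and 1.54-fold (limma, adjusted p = 7.90e-07 and 7.81e-05). It then fell by 0.59 in CN and 0.46 in LP to D28 (adjusted p = 6.18e-05 and 0.000937). D28 remained above D5 by 0.26 ± 0.11 in CN (adjusted p = 0.0418) and by 0.16 ± 0.11 in LP (adjusted p = 0.218). The CN call at D28 was lost without D5-CN replicate 1, 4 or 5 or D28-CN replicate 1 or 2 (0.0541 to 0.135), and the LP difference was called without D28-LP replicate 5 (0.0403).

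*Pde5a*, the cGMP-specific phosphodiesterase that sildenafil blocks, was the dimmest of the genes, above 17.5% of probe sets. It ranged from 4.75 to 4.90 in D5-CN, 4.41 to 4.63 in D10-CN and 4.36 to 4.67 in D28-CN, and the D5-CN arrays were all above both later ages (19.4% of all probe sets fell without overlap from D5-CN to D10-CN). In LP the ranges were 4.57 to 4.81, 4.38 to 4.59 and 4.37 to 4.59, which overlapped. *Pde5a* fell by 0.30 ± 0.06 (SE) in CN and 0.19 ± 0.06 in LP from D5 to D10 (limma, adjusted p = 0.000211 and 0.0108). By D28 the fall from D5 was 0.28 in CN (adjusted p = 0.000177) and 0.14 in LP (adjusted p = 0.0445). The LP call at D28 was lost without D5-LP replicate 2, 3 or 4 or D28-LP replicate 4 (0.0629 to 0.169), with quantile normalization (0.113), with median centring (0.442) and when the 10 arrays of the 2 groups alone were fitted (0.0692). The LP call at D10 was lost with quantile normalization (0.12) and median centring (0.0556).

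Age moved much of the array, and the 9 genes are read against that background. Between D5 and D28, 7 of the 9 genes passed an adjusted p of 0.05 in CN, against 64.5% of all probe sets, and 7 in LP, against 64.8%. In CN 2 were higher (29% of probe sets) and 5 lower (35.6%), and in LP 2 were higher (28.2%) and 5 lower (36.6%). Between D5 and D10, 5 of 9 passed in CN (44.6% of probe sets), of which 2 were higher (14.3%) and 3 lower (30.3%). In LP 4 passed (39.9%), of which 2 were higher (11.2%) and 2 lower (28.7%). Between D10 and D28, 4 passed in CN (60.4%), with 0 higher (31.5%) and 4 lower (28.9%). In LP 3 passed (59.9%), with 0 higher (31.1%) and 3 lower (28.8%). The median difference of all probe sets between ages lay between −0.077 and 0.022.

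**Figure D2:**
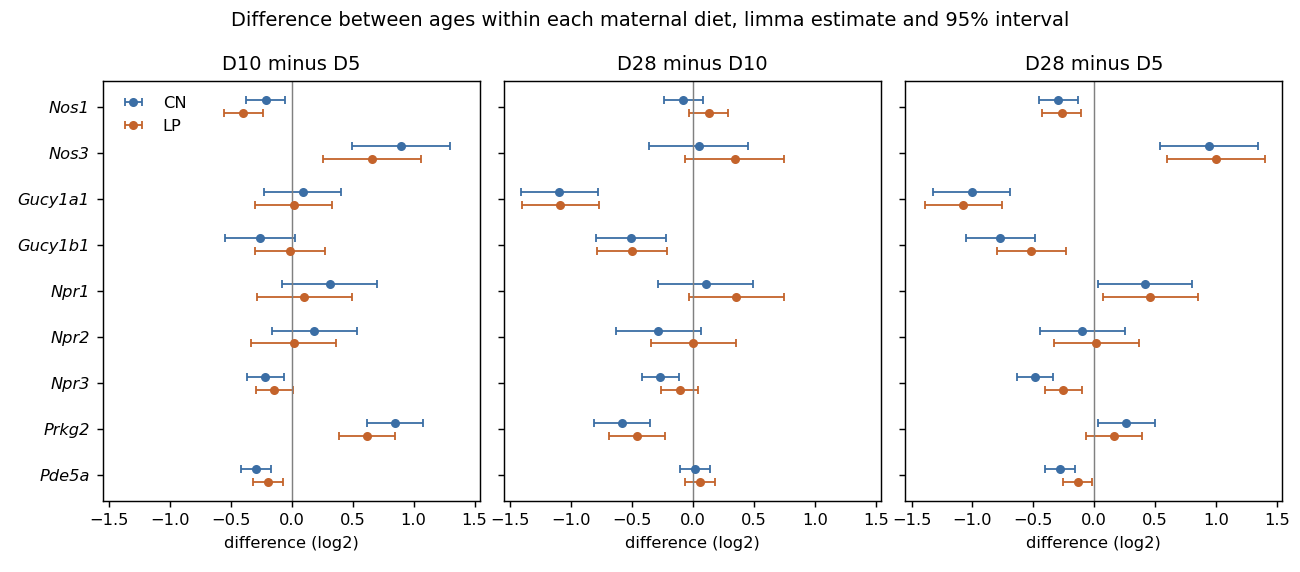
Difference between ages on the log2 scale (horizontal axis) for the 9 genes, with CN in blue and LP in orange; points are limma estimates from 1 fit of 30 arrays and bars the 95% intervals. *Gucy1a1* falls by 1.10 in CN between D10 and D28, whereas *Nos3* rises by 0.90 before D10, and *Prkg2* rises by 0.85 and then falls by 0.59.

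*Nos3*, *Npr1* and *Npr2* varied with endothelial markers from array to array. At D28 *Npr1* and *Npr2* also varied with a score of medulla minus cortex markers by r, though not by rho after adjustment. A mean was taken per array over 11 endothelial genes (*Pecam1*, *Tek*, *Emcn*, *Kdr*, *Flt1*, *Tie1*, *Eng*, *Egfl7*, *Esam*, *Plvap* and *Ehd3*). It ranged from 8.60 to 9.00 in D5-CN, 9.15 to 9.83 in D10-CN and 9.28 to 9.83 in D28-CN, and in LP from 8.96 to 9.12, from 9.18 to 9.66 and from 9.49 to 9.88. Of the 11 genes, 10 rose from D5 to D10 in CN (14.3% of all probe sets were called higher) with a median difference of 0.59, and 4 in LP (11.2%) with a median of 0.28. *Nos3* was called higher in both diets over this interval. From D10 to D28 none rose and 2 fell in CN (31.5% and 28.9% of all probe sets), and 5 rose and 1 fell in LP (31.1% and 28.8%). The part of endothelial content in the *Nos3* and *Npr1* differences was not tested.

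Within each age, deviations from the 2 group means were compared over 10 arrays. *Nos3* followed the endothelial mean at D5 (r = 0.844, rho = 0.782), at D10 (r = 0.984, rho = 0.952) and at D28 (r = 0.885, rho = 0.794). The 2-sided exact permutation p for r within groups was 0.00215, 0.000278 and 0.00222, or 0.0171, 0.0122 and 0.0171 after Benjamini-Hochberg adjustment over 54 relations. For rho the exact p was 0.0333, 0.00167 and 0.0126, adjusted to 0.138, 0.03 and 0.0975. Leaving out the 2 arrays with the most extreme endothelial mean, r was 0.789, 0.980 and 0.681.

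*Npr1* gave r = 0.903, 0.969 and 0.916 at D5, D10 and D28 (rho = 0.806, 0.927 and 0.782), with an exact permutation p of 0.00292, 0.000486 and 0.00299 and adjusted values of 0.0179, 0.0122 and 0.0179. For its rho the exact p was 0.0308, 0.000556 and 0.0156 (adjusted 0.138, 0.0225 and 0.105). *Npr2* gave r = 0.752, 0.975 and 0.946 (rho = 0.709, 0.964 and 0.842), with an exact permutation p of 0.0372, 0.000833 and 0.000903 and adjusted values of 0.115, 0.0122 and 0.0122. For its rho the exact p was 0.0627, 0.000833 and 0.0066 (adjusted 0.187, 0.0225 and 0.06). Without the 2 farthest arrays r fell to 0.571 for *Npr1* at D28 and to 0.791 for *Npr2*. Many genes did the same, and 3.76%, 0.521% and 4.52% of 14217 genes had an r at least as high as *Nos3* at the 3 ages. For *Npr1* these shares were 1.16%, 1.70% and 2.49% and for *Npr2* 9.31%, 1.26% and 0.816%.

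The other 27 of the 54 relations were those to a medulla score, the mean of 11 inner medulla markers such as *Aqp2* and *Aqp3* minus that of 11 cortex markers such as *Slc34a1*. Of these, 2 passed an adjusted p of 0.05 for r, against 9 of 27 for the endothelial mean. For rho 0 passed, against 3 of 27 for the endothelial mean. At D28 the score went with *Npr1* (r = 0.924, rho = 0.733, exact permutation p = 0.00208 and 0.0266, adjusted 0.0171 and 0.138) and with *Npr2* (r = 0.883, rho = 0.673, exact permutation p = 0.00396 and 0.0526, adjusted 0.0214 and 0.177). Leaving out the 2 most extreme arrays, r was 0.703 and 0.514. *Nos3* gave r = 0.757 there (exact permutation p = 0.0239, adjusted 0.0921), which fell to 0.313 without these arrays. An r this high was reached by 2.53% of all genes for *Npr1*, 4.95% for *Npr2* and 13.3% for *Nos3*.

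The gap between 3′ and 5′ control probe sets, a sign of RNA quality, also moved with *Nos3* and *Npr1* at D10, and with *Npr1* in D5-CN. It was 0.466, 0.725, 0.669, 0.473 and 0.517 in the D10-CN arrays and 0.430, 0.429, 0.617, 0.779 and 0.674 in the D10-LP arrays on the log2 scale, in the order in which the *Nos3* levels were given. The 5 arrays with a gap of 0.617 or more held *Nos3* at 6.47 to 6.79, and the other 5 held it at 5.96 to 6.28. For *Npr1* these ranges were 7.72 to 8.04 and 7.01 to 7.67. In D5-CN the gap was 0.727, 0.464, 0.404, 0.578 and 0.540. There *Npr1* was 7.55, 7.04, 6.93, 7.36 and 7.45, and the endothelial mean 9.00, 8.75, 8.60, 8.89 and 8.96. In D28-CN and D28-LP the array with the largest gap (0.639 and 0.792) held the highest *Npr1* (8.21 and 8.33). The part of the medulla and of RNA quality in these relations was not tested.

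*Gucy1a1* followed the endothelial mean at D10 (r = 0.861, rho = 0.915, exact permutation p = 0.0075 and 0.00667, adjusted 0.0368 and 0.06, 0.802 without the 2 farthest arrays), and 12.2% of all genes had an r at least as high. At D5 its r was 0.017 and at D28 0.0503 (exact permutation p = 0.968 and 0.889). Over all 30 arrays with group means removed, r was 0.937 between *Npr1* and *Npr2*, 0.876 between *Nos3* and *Npr1* and 0.835 between *Nos3* and *Npr2*.

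**Figure D3:**
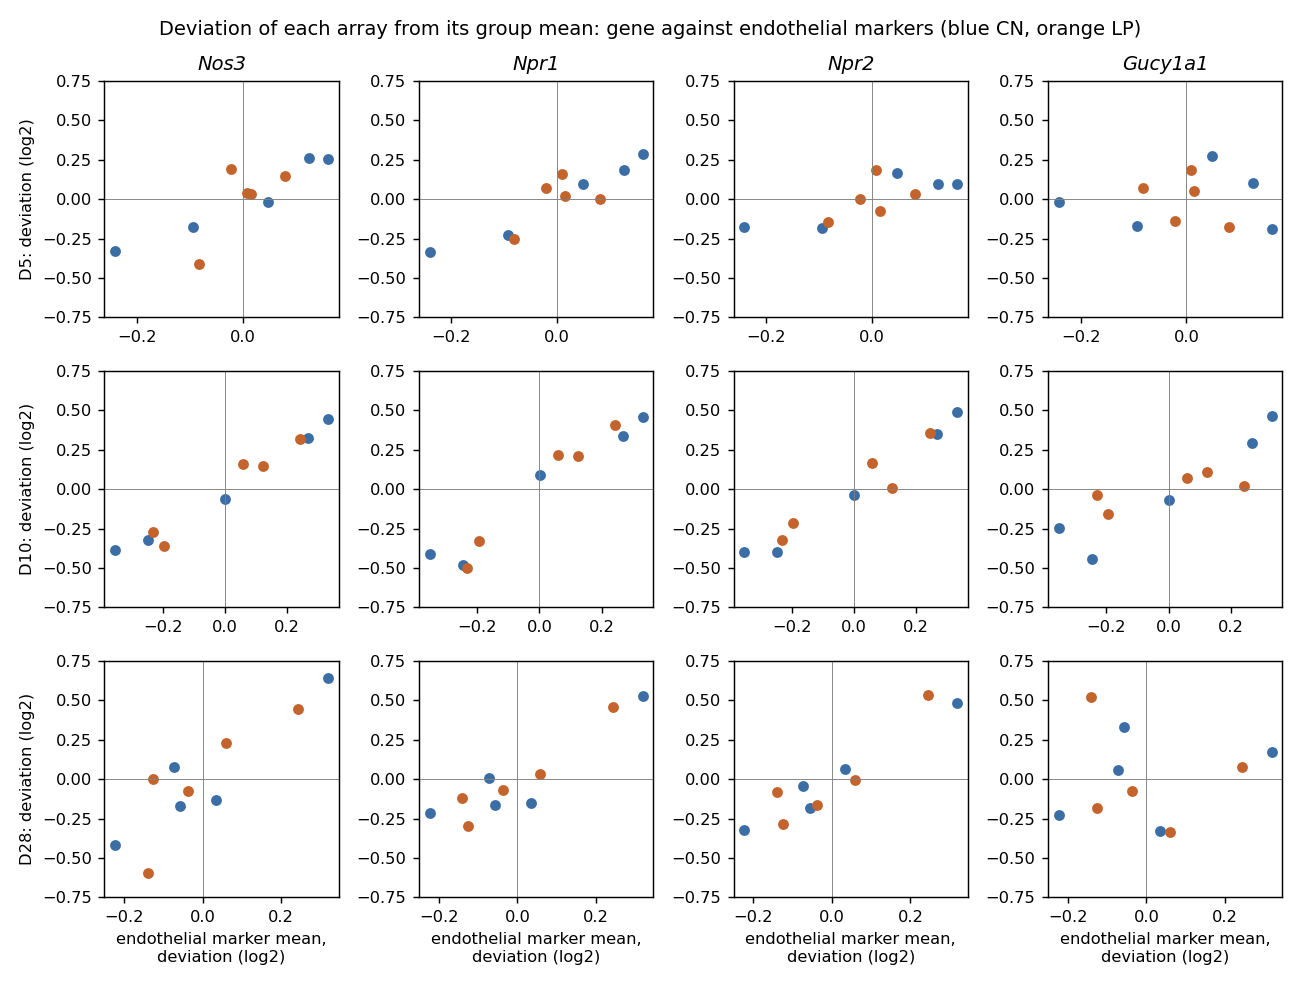
Deviation of each array from its group mean for *Nos3*, *Npr1*, *Npr2* and *Gucy1a1* (vertical, log2) against the deviation of the endothelial marker mean (horizontal, log2) at D5, D10 and D28, with CN in blue and LP in orange (5 arrays each). The points of *Nos3* lie along a line at D10 (r = 0.984), and those of *Gucy1a1* do so at D10 (r = 0.861) but not at D28 (r = 0.0503).

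Maternal protein restriction left none of the 9 genes past an adjusted p of 0.2, the threshold of the study, at any single age. At D5 0 of 9 passed in limma, against 0.00644% of probe sets, and 4 had an unadjusted p under 0.05, against 8.19%. At D10 0 of 9 passed (0% of probe sets), and 1 had an unadjusted p under 0.05, against 5.02%. At D28 0 of 9 passed (0% of probe sets), and 0 had an unadjusted p under 0.05, against 6.09%. The largest differences were those of *Gucy1b1* and *Prkg2* at D5. Rank products, recomputed from the same values, called *Gucy1b1* lower and *Prkg2* higher at D5 and *Nos3* higher at D28 (false discovery rate 0.00588, 0.0691 and 0.156). Of all 31042 probe sets they called 649 at D5 and 940 at D28, where limma called 2 and 0.

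At D5 the beta subunit *Gucy1b1* was 8.56, 8.57, 8.81, 9.25 and 8.82 in CN and 8.26, 8.34, 8.15, 8.55 and 8.47 in LP. No LP array reached the lowest CN array, though the gap at its narrowest was that between 8.55 and 8.56. The difference was −0.45 ± 0.12 (SE), a 1.36-fold lower level (95% interval −0.72 to −0.18, limma adjusted p = 0.412). The second probe set overlapped between the diets and differed by −0.28 (unadjusted p = 0.0222). Of all probe sets, 0.586% were lower in LP at D5 without overlap.

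At D5 the kinase gene *Prkg2* was 5.19, 5.42, 5.44, 5.35 and 5.17 in CN and 5.53, 5.69, 5.82, 5.86 and 5.49 in LP. Every LP array was above every CN array, as for 0.892% of all probe sets. The difference was 0.36 ± 0.09 (SE), a 1.29-fold higher level (95% interval 0.18 to 0.55, limma adjusted p = 0.347). For *Gucy1b1* and *Prkg2* the lack of overlap fixed the 2-sided exact permutation p at 0.00794, unadjusted, the smallest that 5 arrays against 5 allow. Beside them at D5, the mean of 4 red blood cell markers ranged from 9.24 to 9.47 in CN and from 9.51 to 9.71 in LP, without overlap. All 11 endothelial, all 11 inner medulla and all 11 smooth muscle and pericyte markers were higher in LP at D5, with median differences of 0.22, 0.19 and 0.10 and none called. With the medulla score as a covariate, the D5 differences were −0.52 for *Gucy1b1* and 0.40 for *Prkg2*. The part of the other cells in the 2 differences was not tested.

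At D10 *Gucy1b1* differed by −0.20 (95% interval −0.51 to 0.10) and *Prkg2* by 0.13 (−0.02 to 0.28), and at D28 by −0.19 (−0.47 to 0.08) and 0.26 (−0.06 to 0.58). *Gucy1a1* and *Gucy1b1* had lower LP means and *Prkg2* a higher LP mean at all 3 ages, and the other 6 genes changed side. The diet effect of none of the 9 genes differed between ages at an adjusted p of 0.2 (0% of probe sets did in each of the 3 contrasts). The smallest unadjusted limma p of these contrasts was 0.0335, for the *Npr3* diet effects at D28 and D5, which differed by 0.23 (limma adjusted p = 1.00).

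Averaged over the 3 ages, 1 of the 9 genes passed the threshold of 0.2, against 0.312% of probe sets (0.155% higher). This was *Prkg2*, higher in LP by 0.25 ± 0.07 (SE, 95% interval 0.12 to 0.38, limma adjusted p = 0.195). Beside it, all 11 inner medulla markers (median difference 0.20) and all 4 red blood cell markers (median 0.13) were higher in LP, none of them called, and over the D28 arrays *Prkg2* gave r = 0.656 with the medulla score (rho = 0.745, exact permutation p = 0.0585 and 0.0324, adjusted 0.153 and 0.138, r = 0.660 without the 2 farthest arrays). At D5 and D10 the r of *Prkg2* with the medulla score was −0.290 and 0.342. With the endothelial mean it was −0.572, −0.036 and 0.651 at D5, D10 and D28. The rho with that mean at D28 was 0.855 (exact permutation p = 0.00521, adjusted 0.06). Within single ages, the medulla score as a covariate left the *Prkg2* difference at 0.40 at D5 and 0.11 at D10 and took it from 0.26 to 0.13 at D28. The averaged difference was not fitted with it, and the part of red blood cells and endothelium was not tested. *Gucy1b1* lay just outside with −0.28 ± 0.08 (−0.45 to −0.12, adjusted p = 0.205). The *Prkg2* call was lost in 21 of the 30 fits that each left out an array (adjusted p = 0.201 to 0.313). It held only without D5-CN replicate 3, 4 or 5, D5-LP replicate 5, D10-CN replicate 3, D10-LP replicate 2, D28-CN replicate 2 or D28-LP replicate 1 or 5 (lowest adjusted p = 0.0566). *Gucy1b1* was called in 4 of these fits, without D5-CN or D5-LP replicate 5, D28-CN replicate 2 or D28-LP replicate 5 (adjusted p = 0.0755 to 0.176).

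The other genes differed less from their array spread. At D5 *Npr3* was lower in LP by 0.16 (95% interval −0.29 to −0.03, limma adjusted p = 0.557) and *Pde5a* by 0.13 (−0.25 to −0.01, adjusted p = 0.588), and the arrays of the diets overlapped in both. *Nos1* was lower in LP by 0.17 at D10 (−0.31 to −0.04, adjusted p = 0.948), where the highest LP array, at 4.91, lay above the lowest CN array, at 4.90. *Nos3* differed by 0.21 at D5 (−0.08 to 0.50), −0.03 at D10 (−0.44 to 0.39) and 0.27 at D28 (−0.20 to 0.74). *Npr1* differed by 0.14, −0.07 and 0.19 and *Npr2* by 0.03, −0.14 and 0.15 at these ages. With the medulla score as a covariate, the D28 differences were −0.01 for *Npr1* and −0.05 for *Npr2*.

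**Figure D4:**
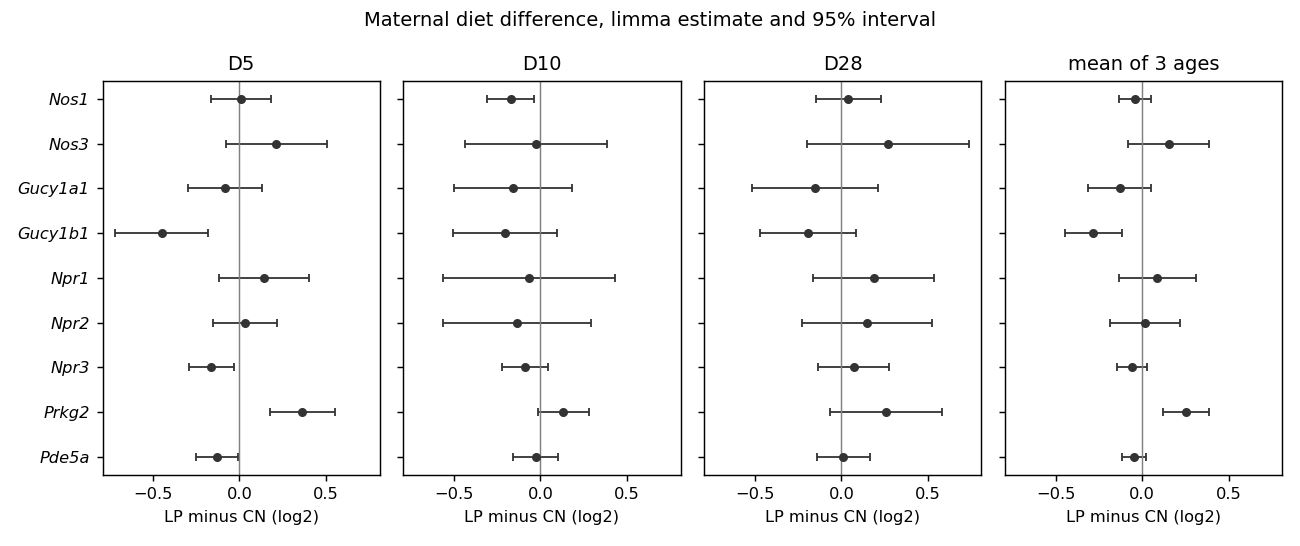
LP minus CN difference on the log2 scale (horizontal axis) for the 9 genes at D5, D10, D28 and averaged over the 3 ages; points are limma estimates and bars the 95% intervals. The intervals of *Gucy1b1* (−0.45) and *Prkg2* (0.36) at D5 do not reach 0, but their adjusted p-values of 0.412 and 0.347 miss the threshold.

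The wider pathway was followed in 5 lists of genes that supply, sense, break down or act on cGMP, each gene by its brightest probe set. Of the other guanylate cyclases, 6 genes were measured, and 2 rose and 2 fell from D5-CN to D28-CN, against 29% and 35.6% of all probe sets. *Gucy1b2*, the second beta subunit of soluble guanylate cyclase, had the largest change of these with a 9.19-fold rise (3.20 ± 0.09 SE, limma adjusted p = 3.33e-22). It was 3.55 ± 0.11 in D5-CN, 3.79 ± 0.08 in D10-CN and 6.75 ± 0.17 in D28-CN (SD, n = 5 arrays), and 6.63 ± 0.22 in D28-LP. It thus rose over the interval in which *Gucy1a1* and *Gucy1b1* fell. The D5-CN and D10-CN levels of *Gucy1b2* were below those of the dim *Pde5a*. Their distance from background is unknown, which leaves the size of the fold uncertain. *Gucy1a2*, the second alpha subunit, rose by 0.18, while *Gucy2c*, the receptor of guanylin, fell by 0.26 and the retinal cyclase *Gucy2f* by 0.18.

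Of 7 genes for ligands and their processing, 4 rose and none fell from D5-CN to D28-CN, with a median difference of 0.53 against −0.028 over all probe sets. Uroguanylin (*Guca2b*), a peptide that promotes salt excretion, rose 3.05-fold from 6.05 ± 0.14 in D5-CN to 7.66 ± 0.38 in D28-CN (SD, n = 5 arrays; limma adjusted p = 3.72e-10). Guanylin (*Guca2a*) rose by 0.60, *Furin*, a protease that cleaves propeptides, by 0.64 and *Mme*, the protease neprilysin that degrades natriuretic peptides, by 0.53. The natriuretic peptide genes *Nppa*, *Nppb* and *Nppc* did not pass between these ages in CN (0.06, −0.09 and 0.10).

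Of 16 genes for the supply and control of nitric oxide, 5 rose and 4 fell (median difference 0.12). *Ddah2* and *Ddah1* both degrade the synthase inhibitor asymmetric dimethylarginine, and they ran in opposite directions, with a fall of 0.82 ± 0.06 (SE) and a rise of 0.65 ± 0.15 (limma, adjusted p = 2.81e-12 and 0.000555). *Pts*, which makes the synthase cofactor tetrahydrobiopterin, rose by 0.54, and *Cav1*, which binds and restrains the endothelial synthase, fell by 0.54.

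Of 11 genes for cGMP breakdown and export, 4 rose and 4 fell. *Pde2a*, which cGMP stimulates, rose by 0.74 and *Pde1a*, which calcium and calmodulin stimulate, by 0.69, whereas *Pde10a* fell by 0.69 and the cGMP-specific *Pde9a* by 0.66. Of 11 kinase targets and cGMP-gated channels, 3 rose and 3 fell further than the test required. Phospholamban (*Pln*), a regulator of the calcium pump, rose 3.80-fold (1.93 ± 0.12 SE, limma adjusted p = 9.27e-14). *Kcnma1*, the large-conductance potassium channel, fell 3.42-fold (1.77 ± 0.11, adjusted p = 1.60e-14), *Rgs2* by 0.95 and the myosin phosphatase subunit *Ppp1r12a* by 0.64.

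In LP the counts from D5 to D28 were 4 higher and 1 lower of 7 ligand genes, 3 and 1 of 6 cyclases, 3 and 4 of 16 supply genes, 5 and 4 of 11 breakdown genes and 3 and 4 of 11 targets and channels, against 28.2% of all probe sets higher and 36.6% lower. None of the 51 genes passed in a diet comparison at a single age. Averaged over the ages, only *Pde1a* of the 51 genes passed, against 0.312% of all probe sets. It was higher in LP by 0.23 ± 0.06 (SE, limma adjusted p = 0.191). Its means were 6.92 and 7.15 at D5, 6.95 and 7.26 at D10 and 7.61 and 7.74 at D28 in CN and LP. Whether the *Pde1a* call held in the alternatives or with single arrays left out was not tested.

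**Figure D5:**
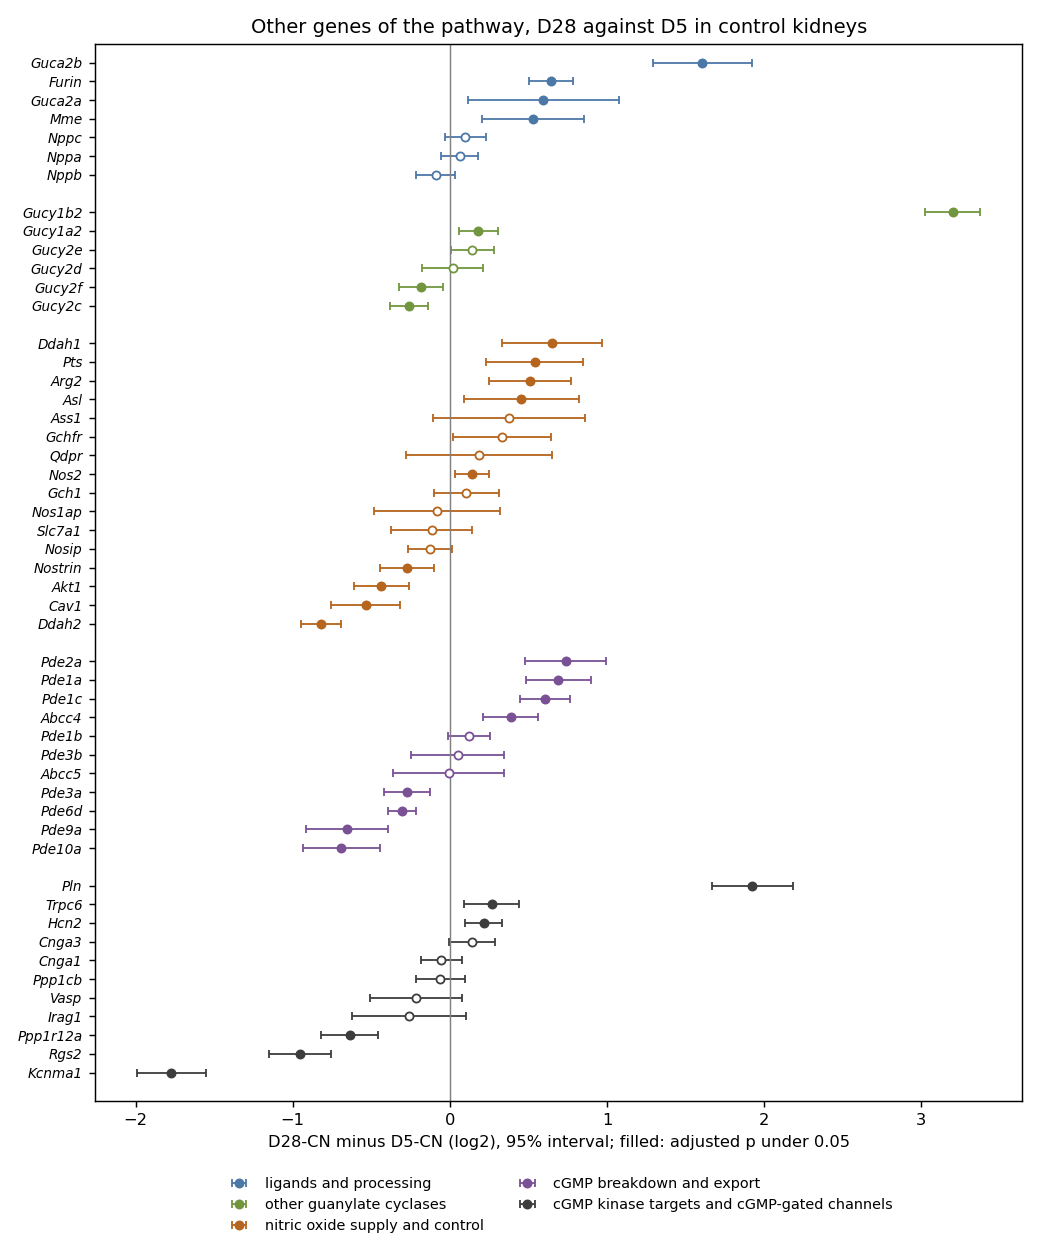
D28-CN minus D5-CN on the log2 scale (horizontal axis) for the 51 other pathway genes in 5 lists, each list in its own colour; points are limma estimates, bars 95% intervals and filled points pass an adjusted p of 0.05. *Gucy1b2* (3.20), *Pln* (1.93) and *Guca2b* (1.61) lie farthest to the right and *Kcnma1* (−1.77) farthest to the left.

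For each gene, the 3 genes with the most similar pattern were taken from 13859 genes by Pearson's r over the 30 arrays, which age dominates. *Gucy1a1* was most like *Tril*, *Adam19* and *Pcdh18* (r = 0.974, 0.967 and 0.960), and *Gucy1b1* most like *Gucy1a1* itself (0.862), then *Togaram1* and *Hoxc5* (0.857 and 0.844). *Nos3* was most like the endothelial genes *Ptprb* and *Esam* (0.959 and 0.956) and *Pdcd6ip* (0.954). *Npr1* was most like *Heg1*, *Arhgef1* and *Kmt2e* (0.966, 0.954 and 0.953), and *Npr2* most like *Cerk*, *Nes* and *Znrf1* (0.950, 0.943 and 0.931).

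The closest genes of *Prkg2* were *Pdgfrl*, *Vtcn1* and *Tnik* (0.873, 0.868 and 0.867) and those of *Npr3* were *Rbm18*, *Eif2a* and *Smc2* (0.879, 0.863 and 0.862). *Nos1* was closest to *Vch*, *Crxos1* and *Ucn* (0.857, 0.850 and 0.817) and *Pde5a* to *Acsl4*, *Zic4* and *Gtf2h5* (0.852, 0.846 and 0.837). These 4 genes thus reached a lower likeness with any gene than *Gucy1a1*, *Nos3*, *Npr1* and *Npr2* did.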

How the data were processed

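Kidney RNA was hybridised to Affymetrix GeneChip rat genome arrays. The authors normalized the intensity files in R and deposited 1 log2 value per probe set and array, and the file names give qFARMS as the summary method. Factor summaries of this kind compress small differences, and no detection calls were used here, so dim genes such as *Nos1* and *Pde5a* have an unknown distance from background. The authors also deposited tables for each age with log2 differences and rank product scores, which hold their own comparisons and were not used, nor were their 30 array columns, whose names match no single sample.

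Of 31099 probe sets, 57 controls were left out and 31042 were tested without a filter or further normalization. A table of platform annotation gave 20826 of them 1 gene symbol, 436 several and 9780 none. Where a gene had several, the brightest over the 30 arrays stood for it. Diet was compared within each age (10 arrays) and ages, diet by age and the averaged diet effect in 1 fit of 30 arrays, with limma 3.58.1 in R 4.3.3 (2-sided, no covariate). P-values were adjusted by Benjamini-Hochberg over 31042 probe sets, with a threshold of 0.2 for diet, from the study's own false discovery rate, and 0.05 for age. limma was used in place of the study's rank products, which were an alternative with 50 permutations. Within-age relations to marker means were tested by exact permutation within groups. No depth applies to arrays, and the number of arrays limits the precision.

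The genes and gene lists were chosen with earlier results of these data known. The text names all 9 measured members, up to 4 genes of each pathway list with the largest change from D5-CN to D28-CN among those past the threshold, genes past the threshold of a diet comparison, and 3 like genes per member. *Nppa*, *Nppb*, *Nppc* and the marker genes were named outside this rule. Alternatives were quantile normalization, median centring, leaving out the dimmest 25% of probe sets, other variance models, gene means, a score of medulla against cortex markers or the gap between 3′ and 5′ control probe sets as covariate, other thresholds and tests, a block for the replicate number, and each array left out in turn. The fits were tested on simulated data. Tables were read with pandas 2.3.3 and numpy 2.4.6 in Python 3.11.15 or, in R, with the data.table package (version 1.17.8). Permutation used scipy 1.17.1 and plots matplotlib 3.10.9.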

Additional observations from a re-analysis of the deposited data

Results flagged for a closer look

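In 5 of 66 groups of 5 arrays, 1 array lay far from the other 4, with a gap to its nearest neighbour above 0.71 of the whole range of the group. Chance alone gives about 1 in 20 such groups. The highest array of *Nos1* in D5-LP was replicate 3, at 5.43 (gap 0.73 of the range), and that in D28-LP was replicate 5, at 5.21 (gap 0.839). The lowest array of *Nos3* in D5-LP was replicate 4, at 5.25 (gap 0.734). The lowest array of *Npr3* in D28-CN was replicate 2, at 5.97 (gap 0.765). The lowest array of *Pde5a* in D28-LP was replicate 4, at 4.37, while the other 4 lay between 4.58 and 4.59 (gap 0.962). D28-CN replicate 2, low for *Npr3*, was the highest array of its group for *Nos3* (7.03), *Npr1* (8.21) and *Npr2* (8.67).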

How the results depend on the processing

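The calls of the 3 single-age diet comparisons and the 3 diet by age contrasts stayed at 0 of 9 genes in every alternative run except rank products, which called 2 at D5 and 1 at D28. Rank products called 649, 227 and 940 probe sets at D5, D10 and D28, where limma called 2, 0 and 0 (2541, 1558 and 1890 with an unadjusted p under 0.05) and the methods' t-test after Benjamini-Hochberg adjustment 0, 1 and 0. The count at D10 minus D5 was 3 of 9 in CN with quantile normalization, with median centring and without dim probe sets (which leaves out *Nos1* and *Pde5a*), and 2 in LP without dim probe sets. The count at D28 minus D10 in LP was 7 at a threshold of 0.2, which is looser than the 0.05 at which 59.9% of all probe sets passed. The share of all probe sets is not given for the age counts of the alternatives, so these counts describe stability only. Averaged over the ages, 0 genes passed with quantile normalization, a replicate block, gene means or a threshold of 0.05, and 0 to 2 when each array was left out. Arrays of different groups share only a number, since the deviations of arrays with the same number correlated at −0.705 to 0.649, and with the replicate block the other counts were 5, 4 and 7 in CN and 4, 3 and 6 in LP for D10 minus D5, D28 minus D10 and D28 minus D5. The replicate block lost the *Prkg2* call (adjusted p = 0.206) and the *Pde5a* call between D5 and D28 in LP (0.0541).
Some differences that missed the threshold changed sign. The largest of these in the main fit were the D28 diet differences of *Npr1* (0.19) and *Npr2* (0.15). For LP minus CN the covariate for medulla against cortex gave −0.0547 (*Npr2*, D5), −0.0122 (*Npr1*, D28) and −0.0536 (*Npr2*, D28), the 3′ to 5′ covariate −0.0602 (*Npr2*, D28), median centring −0.0085 (*Nos1*, D5) and −0.0018 (*Pde5a*, D28), and quantile normalization 0.0053 (*Pde5a*, D10) and −0.0082 (*Npr2*, averaged). For D10 minus D5, gene means gave −0.0165 in CN and −0.0471 in LP for *Gucy1a1* and 0.1308 in LP for *Gucy1b1*, which was 0.0523 with quantile normalization and 0.0221 with median centring. Quantile normalization gave −0.0266 for *Pde5a* at D28 minus D10 in CN, and gene means −0.0066 and −0.0521 for the change of the diet effect of *Gucy1a1* and *Gucy1b1* from D10 to D28. The cause was not tested.
When each array was left out, the same kind of difference ranged as follows. For LP minus CN it was −0.0155 to 0.072 (*Npr2*) and −0.0489 to 0.056 (*Nos1*) at D5, −0.1867 to 0.0593 (*Npr1*), −0.1217 to 0.0863 (*Nos3*) and −0.0532 to 0.0022 (*Pde5a*) at D10, −0.0046 to 0.1092 (*Npr3*), −0.0218 to 0.0836 (*Nos1*) and −0.0305 to 0.0542 (*Pde5a*) at D28, and −0.0304 to 0.0556 (*Npr2*) averaged. For D10 minus D5 it was −0.0265 to 0.2023 (*Gucy1a1*) in CN and −0.0288 to 0.0603 (*Gucy1a1*), −0.0947 to 0.0322 (*Gucy1b1*) and −0.0734 to 0.0965 (*Npr2*) in LP. For D28 minus D10 it was −0.0259 to 0.2199 (*Npr1*), −0.1134 to 0.1572 (*Nos3*) and −0.0174 to 0.0591 (*Pde5a*) in CN and −0.1329 to 0.0913 (*Npr2*) in LP, and for D28 minus D5 in LP −0.1166 to 0.0893 (*Npr2*). The change of the diet effect was −0.1879 to 0.041 (*Gucy1a1*) from D5 to D10, and −0.1244 to 0.1192 (*Gucy1a1*), −0.1046 to 0.0881 (*Gucy1b1*) and −0.003 to 0.0818 (*Pde5a*) from D10 to D28. From D5 to D28 it was −0.2 to 0.0156 (*Gucy1a1*), −0.0718 to 0.1741 (*Npr1*), −0.0164 to 0.2405 (*Npr2*), −0.0316 to 0.0885 (*Nos1*) and −0.0515 to 0.2174 (*Nos3*). Low levels, whose distance from background is unknown, limit *Nos1* and *Pde5a*.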
